A study of Oryza sativa with 12 samples.

Results

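Roots of a rice line with RNAi against OsPEP1 that had been given PEP1 were compared with roots of wild type rice that had not, to ask how far apart the transcript levels of these groups lie. The comparison took 6 of the 12 libraries of the series. Of these, 3 came from the OsPEP1 RNAi line 1 treated with 1 µM PEP1 (RNAi PEP1), and 3 came from the wild type treated with ethanol (WT ethanol). The groups therefore differed in genotype and in treatment at once. The other 6 libraries were from the RNAi line under ethanol (RNAi ethanol) and from the wild type under 1 µM PEP1 (WT PEP1), 3 of each, and entered the same fit. All plants were seedlings of the cultivar XS134, 7 days old, and all RNA was from the root. The RNAi group is a single line, so the line and the knockdown cannot be told apart. The labels do not describe PEP1 further, nor what it was dissolved in or how long it was applied. Whether the 3 libraries of a group were separate plants or cultures is not stated, so p-values reflect the spread of these libraries alone, which may be technical. The locus of OsPEP1 was not tied to an ID, and the level of the targeted transcript was not analysed here.

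Several systems of the rice root are described below. Rice takes up iron by releasing phytosiderophores made from nicotianamine and importing the iron chelates, and also by importing ferrous iron directly, and the genes of both routes are switched on under iron deficiency. Aquaporins carry water across the plasma membrane and the tonoplast, jasmonate and WRKY transcription factors carry wound and defence responses, and type-A response regulators are early targets and repressors of cytokinin signalling. Of 173 rice loci written by hand for such systems, 141 passed a check of their names by position, and 133 of those passed the filter on low counts. The 8 others had few counts in most libraries and are in no count below. Of these, *RR5* had 0 counts in all 12 libraries. *KSL10*, a diterpene cyclase gene, had 510 counts in RNAi PEP1 library 2, 100 in RNAi ethanol library 2 and 2 or fewer in each other library. A gene in the counts that was near 0 in one group passed the filter through the group in which it was high.

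RNAi PEP1 libraries held 21317008, 20134329 and 20220875 counts, and WT ethanol libraries held 17005866, 17313260 and 15971937. Levels are given as CPM, counts divided by the library size after scaling with TMM factors. A count of 0 allows up to 3 counts, covering counting error only. Before TMM scaling, 3 counts stood for 0.141 to 0.149 CPM in RNAi PEP1 and 0.173 to 0.188 CPM in WT ethanol. Of the root markers, *LSI1*, *LSI2* and *PHO1-2* were present in each library, with summed levels of 3410, 3203 and 2428 CPM in RNAi PEP1 and 1133, 1090 and 1310 CPM in WT ethanol. The 4 shoot markers, which encode photosynthetic proteins, summed to 92.8, 750.4 and 56.2 CPM in RNAi PEP1 and to 67.1, 285.0 and 24.9 CPM in WT ethanol, and none was at 0 in any library. Some libraries stood apart from their groups. On the first principal component, RNAi PEP1 libraries lay at -88.5, -116.6 and -38.4, and WT ethanol library 1 lay at -7.59, away from 95.8 and 78.8 for the other WT ethanol libraries. On the third component, RNAi PEP1 library 2 lay at -67.7, away from 18.15 and 51.3 for the others of its group, and WT ethanol library 2 lay at -68.95, away from -18.3 and 12.6. Within each of the 2 groups, library 2 also had the highest shoot marker sum.

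The roots of RNAi PEP1 and WT ethanol differed in 3902 of 25602 genes tested (15.2%), of which 2089 were higher in RNAi PEP1 (8.16%) and 1813 were lower (7.08%). A gene was called at an adjusted p below 0.05. Changes of at least 2-fold were called in 2677 genes (10.5%), 1545 of them higher (6.03%) and 1132 lower (4.42%). The libraries of the groups did not overlap in 7586 genes (29.6%), of which 3898 were higher (15.2%) and 3688 were lower (14.4%). The median log2 change over all tested genes was 0.0014. Measured as the root mean square difference in log2 CPM over genes, an RNAi PEP1 library and a WT ethanol library were 1.34 apart on average over the 9 pairs, with a range of 1.103 to 1.576. Libraries of the same group were 0.740 apart on average in RNAi PEP1 and 0.910 apart in WT ethanol. RNAi PEP1 libraries were nearer to RNAi ethanol libraries (mean 1.14) and to WT PEP1 libraries (mean 0.992). These distances are a description, since 3 libraries against 3 cannot give an exact permutation p below 0.1.

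The count of calls depended on single libraries. It was 2313 without RNAi PEP1 library 1, 2506 without RNAi PEP1 library 2, 6378 without WT ethanol library 1 and 2379 without WT ethanol library 3. Leaving out both WT ethanol library 1 and RNAi PEP1 library 2, a setting chosen after the data were seen, gave 4421 calls, with 2216 higher and 2205 lower. Fitting only the 6 libraries compared gave 1769 calls, and the calls in some lists were fewer, with 6 aquaporin and silicon genes and 2 WRKY genes higher, and 1 cellulose synthase and 1 phenylpropanoid gene lower. The 7 iron uptake calls were made in that fit too. Of the 133 list genes, 29 were higher in RNAi PEP1, 36 were lower and 68 were not called, and their median log2 change was 0.020. Over all tested genes, 8.16% were called higher and 7.08% lower, and each count by list below stands beside these shares. All members' changes are shown by list in the plot of list genes.

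**Figure D1:**
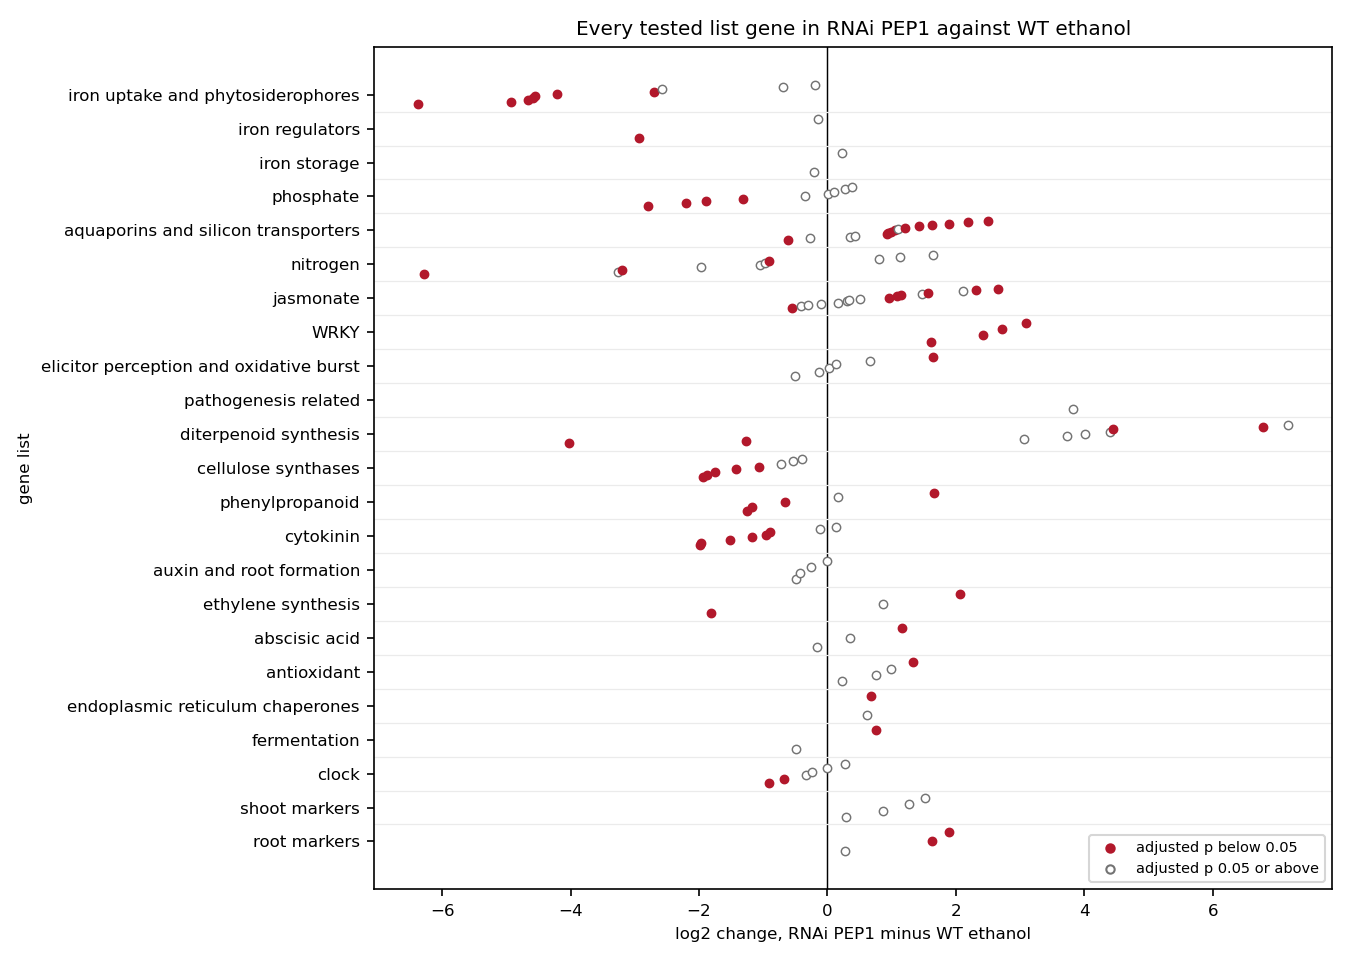
Log2 change (RNAi PEP1 minus WT ethanol) of each of the 133 tested list genes, 1 row a list, with filled points for genes called at an adjusted p below 0.05. LSI1, LSI2 and PHO1-2 appear in 2 lists each. The iron uptake list reaches -6.38, the 4 WRKY genes lie at 1.61 to 3.09, and the called cellulose synthase and cytokinin genes all lie below 0.

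The genes of iron uptake were far lower in RNAi PEP1 than in WT ethanol. Of 10 tested genes of iron uptake and phytosiderophore synthesis, 7 were called lower and 0 higher, with a list median log2 change of -4.38. *IRT2*, a ferrous iron transporter (LOC_Os03g46454), was at 1.17, 0.856 and 1.40 CPM in RNAi PEP1 and 118, 71.9 and 97.2 CPM in WT ethanol, a fitted difference of 83.01-fold (log2 change -6.38 ± 0.53, adjusted p = 2.74e-05). The RNAi PEP1 libraries were all close to 1 CPM, and no library of either group approached the other group. *NRAMP1* (LOC_Os07g15460), a metal transporter, was at 41.3, 30.3 and 59.1 CPM in RNAi PEP1 and 1258, 1502 and 1236 CPM in WT ethanol (log2 change -4.93 ± 0.34, adjusted p = 9.18e-06). The fitted difference in its level was 30.6-fold, and again every library of RNAi PEP1 was below every library of WT ethanol.

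Both nicotianamine synthases with high levels fell. *NAS2* (LOC_Os03g19420) was at 73.97, 72.1 and 146 CPM in RNAi PEP1, against 3065, 2165 and 2191 CPM in WT ethanol (log2 change -4.67 ± 0.58, adjusted p = 0.000417). Its neighbour *NAS1* (LOC_Os03g19427) was at 58.2, 61.8 and 110.3 CPM in RNAi PEP1, against 2346, 1494 and 1574 CPM in WT ethanol (log2 change -4.55 ± 0.55, adjusted p = 0.000342). The pair lies side by side on chromosome 3 and has similar sequences, so reads may have been divided between them. The third synthase, *NAS3*, was not called, with 36.3, 41.9 and 29.6 CPM in RNAi PEP1 and 39.6, 45.4 and 37.8 CPM in WT ethanol (log2 change -0.19 ± 0.16, adjusted p = 0.472). *NAAT1*, whose enzyme takes nicotianamine towards the phytosiderophore deoxymugineic acid, was at 115, 138 and 119.9 CPM in RNAi PEP1, against 1320, 474 and 617 CPM in WT ethanol (log2 change -2.69 ± 0.46, adjusted p = 0.00285). The groups did not overlap in *NAS1*, *NAS2* or *NAAT1*.

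The transporters of iron chelates fell with them. *YSL15* (LOC_Os02g43410), which imports iron bound to phytosiderophore, was at 30.4, 20.8 and 23.7 CPM in RNAi PEP1 and 1277, 209.8 and 318 CPM in WT ethanol (log2 change -4.59 ± 0.99, adjusted p = 0.0109). WT ethanol library 1 was the highest by far, but the lowest WT ethanol library still exceeded each RNAi PEP1 library. *YSL2* (LOC_Os02g43370), a transporter of metal chelates of nicotianamine, was at 70.03, 65.7 and 84.6 CPM in RNAi PEP1 and 1587, 1308 and 1196 CPM in WT ethanol (log2 change -4.21 ± 0.38, adjusted p = 4.39e-05). *IRT1*, the other ferrous iron transporter, was at 15.9, 13.2 and 9.32 CPM in RNAi PEP1 and 151, 23.03 and 56.1 CPM in WT ethanol and missed the threshold (log2 change -2.58 ± 0.80, adjusted p = 0.0525), although the groups did not overlap. *NRAMP5*, the main manganese importer of the rice root, overlapped between the groups, at 119 to 225 CPM in RNAi PEP1 and 219 to 451 CPM in WT ethanol.

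Among iron regulators, *IRO3* (LOC_Os03g26210), a bHLH factor that is itself induced by iron deficiency, was at 31.9, 27.6 and 42.8 CPM in RNAi PEP1 and 266, 306 and 213 CPM in WT ethanol (log2 change -2.94 ± 0.26, adjusted p = 4.39e-05). *IDEF1*, a transcription factor upstream of the deficiency response, was not called, at 30.1 to 36.9 CPM in RNAi PEP1 and 32.2 to 43.2 CPM in WT ethanol. The vacuolar iron transporters *VIT1* and *VIT2*, the 2 tested genes of iron storage, were not called (log2 changes 0.22 and -0.21). In this bulk tissue, fewer cells of a type and less RNA per cell cannot be told apart.

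The iron genes were also low in the wild type given PEP1. *IRT2* was at 1.67, 0.238 and 0.591 CPM in WT PEP1 and 60.8, 116 and 111 CPM in RNAi ethanol, and *NRAMP1* was at 45.6, 20.5 and 30.01 CPM in WT PEP1 and 1213, 1410 and 1393 CPM in RNAi ethanol. Set against RNAi ethanol, a pair that shares no library with the one above, WT PEP1 had 8 of the 10 uptake genes called lower, and *IRO3* was lower as well (log2 change -2.73 ± 0.26, adjusted p = 6.66e-05). For none of the uptake genes did the log2 changes of the pairs differ at the threshold when that difference was tested. The difference for *IRT2*, as the change in RNAi PEP1 against WT ethanol minus that in WT PEP1 against RNAi ethanol, was 0.42 ± 0.67, adjusted p = 0.870.

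**Figure D2:**
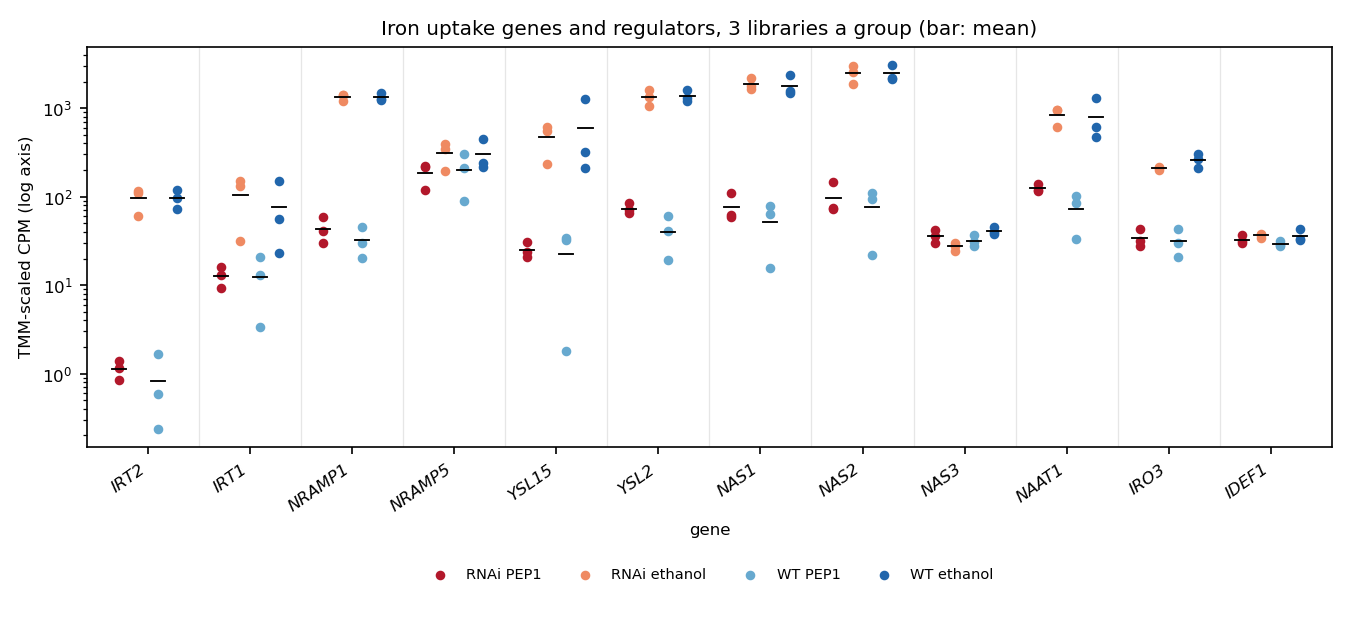
TMM-scaled CPM (log axis) of 10 iron uptake genes and 2 regulators in each of 3 libraries a group, with the group mean as a bar. In the uptake genes called lower and in IRO3, the RNAi PEP1 and WT PEP1 libraries lie below the RNAi ethanol and WT ethanol libraries. NRAMP5, NAS3 and IDEF1 overlap between RNAi PEP1 and WT ethanol.

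Phosphate genes moved in part. Of 9 tested, 4 were called lower in RNAi PEP1 and 0 higher, with a median log2 change of -0.35. *PT6* (LOC_Os08g45000), a phosphate transporter, was at 1.65, 0.161 and 0.839 CPM in RNAi PEP1 and 4.71, 6.44 and 7.59 CPM in WT ethanol (log2 change -2.80 ± 0.65, adjusted p = 0.0151). *SPX5* (LOC_Os03g29250), of the SPX family of phosphate sensors, was at 2.58, 2.57 and 2.61 CPM in RNAi PEP1, against 12.1, 10.8 and 12.9 CPM in WT ethanol (log2 change -2.20 ± 0.27, adjusted p = 0.000394). *SPX2* (LOC_Os02g10780) was at 9.44, 7.60 and 4.43 CPM in RNAi PEP1, against 40.5, 19.8 and 19.3 CPM in WT ethanol (log2 change -1.89 ± 0.37, adjusted p = 0.00640), and *SPX1* was also lower (log2 change -1.32, adjusted p = 0.00141). The groups did not overlap in any of the 4. *PHR2*, the transcription factor of the phosphate starvation response, had a log2 change of 0.00084, and *SPX4* had 0.1. The transporter *PT2* was at 78.1, 86.9 and 37.6 CPM in RNAi PEP1 and 146, 3.13 and 6.35 CPM in WT ethanol, where library 1 was far above the others, and was not called (log2 change 0.38, adjusted p = 0.874). Without that library it was called higher (log2 change 3.81, adjusted p = 0.0396). *PT6* lost its call with only the 6 libraries compared (adjusted p = 0.0681).

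Nitrogen genes varied widely between the WT ethanol libraries. Of 10 tested, 3 were called lower in RNAi PEP1 and 0 higher. *NIA1* (LOC_Os08g36480), a nitrate reductase, was at 13.96, 26.1 and 13.7 CPM in RNAi PEP1 and 292, 111 and 88.2 CPM in WT ethanol (log2 change -3.19 ± 0.44, adjusted p = 0.000827), and the cytosolic glutamine synthetase *GLN1-1* was at 363, 306 and 411 CPM in RNAi PEP1 and 857, 571 and 597 CPM in WT ethanol (log2 change -0.91 ± 0.19, adjusted p = 0.00869). Neither pair of groups overlapped. *NRT2.1* (LOC_Os02g02170), a high-affinity nitrate transporter, was at 1.12, 1.23 and 0.326 CPM in RNAi PEP1 and 202, 0.945 and 3.85 CPM in WT ethanol (log2 change -6.28 ± 1.85, adjusted p = 0.0436). WT ethanol library 1 was far above all other libraries, and the groups overlapped. Without that library its log2 change was -1.45 (adjusted p = 0.376), and under limma-voom it was -3.50 (adjusted p = 0.359). With the replicate number as a block the adjusted p was 0.150. The call was also lost without any 1 of the RNAi PEP1 libraries (adjusted p = 0.105 to 0.128), without RNAi ethanol library 1 or 3 (0.0504 and 0.0627) and without WT PEP1 library 1 or 3 (0.0647 and 0.0571).

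The same library was high in genes of ammonium uptake and assimilation. *GLN1-2*, a glutamine synthetase of ammonium assimilation, was at 2144, 1681 and 751 CPM in RNAi PEP1 and 1352, 34.7 and 75.1 CPM in WT ethanol. The ammonium transporter *AMT1-3* (LOC_Os02g40730) was at 625, 516 and 172 CPM in RNAi PEP1 and 528, 33.1 and 42.3 CPM in WT ethanol. Both were far above the other WT ethanol libraries in library 1, and neither was called with all libraries (adjusted p = 0.380 and 0.520). Without WT ethanol library 1, 3 nitrogen genes were called higher in RNAi PEP1, namely *GLN1-2*, *AMT1-3* and *AMT1-1*, which were named after their values were seen. Their adjusted p values were then 0.00759, 0.0244 and 0.0228. *NRT2.1* and its near-identical neighbour *NRT2.2* may also have shared reads. The check of names by position matched the symbols *AMT1-2* and *AMT1-3* to the same gene, so it did not separate these neighbours.

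Aquaporins and silicon transporters were mostly higher. Of 15 tested, 10 were called higher in RNAi PEP1 and 1 lower, with a median log2 change of 1.05. *TIP1-2* (LOC_Os01g74450), a tonoplast aquaporin, was at 1695, 1361 and 1449 CPM in RNAi PEP1 and 302, 232 and 259.7 CPM in WT ethanol, a fitted difference of 5.67-fold (log2 change 2.50 ± 0.19, adjusted p = 1.65e-05). *PIP2-5* (LOC_Os07g26660), a plasma membrane aquaporin, was at 685, 487 and 674 CPM in RNAi PEP1 and 102, 158 and 143 CPM in WT ethanol (log2 change 2.19 ± 0.21, adjusted p = 7.93e-05). The groups were far apart in both, with every RNAi PEP1 library higher.

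The silicon pathway moved with them. *LSI2* (LOC_Os03g01700), which exports silicon from root cells towards the stele, was at 1307, 1240 and 767 CPM in RNAi PEP1 and 330.3, 240.5 and 327 CPM in WT ethanol (log2 change 1.89 ± 0.40, adjusted p = 0.0100). *LSI1* (LOC_Os02g51110), the silicon influx channel, was at 1578, 1524 and 1053 CPM in RNAi PEP1 and 431, 416 and 495 CPM in WT ethanol (log2 change 1.63 ± 0.33, adjusted p = 0.00725). Both are also root markers here, and the third root marker, *PHO1-2*, was not called (log2 change 0.28, adjusted p = 0.302). Other called aquaporins included *PIP2-3* (log2 change 1.42), *PIP2-2* (1.20), *PIP2-4* (0.99) and *PIP1-1* (0.95). The exception was *PIP2-6*, at 150.2, 139 and 177 CPM in RNAi PEP1 and 194, 264 and 258 CPM in WT ethanol (log2 change -0.62 ± 0.16, adjusted p = 0.0246). Its call was lost without RNAi PEP1 library 1 or 2 (adjusted p = 0.0883 and 0.0955) and without WT ethanol library 2 or 3 (0.0798 and 0.0891). *PIP1-3* was not called here (log2 change -0.28), although the RNAi line was below the wild type under either treatment, as given with the pair differences.

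Genes of jasmonate synthesis and signalling were higher in part. Of 16 tested, 6 were called higher in RNAi PEP1 and 1 lower, with a median log2 change of 0.73. *TIFY11E* (LOC_Os10g25230), a JAZ repressor of jasmonate signalling, was at 4.33, 3.96 and 5.73 CPM in RNAi PEP1 and 0.620, 0.886 and 0.712 CPM in WT ethanol (log2 change 2.65 ± 0.44, adjusted p = 0.00255). *TIFY11D* (LOC_Os10g25290), a JAZ gene of the same cluster on chromosome 10, was at 26.02, 38.9 and 23.4 CPM in RNAi PEP1 and 7.88, 4.78 and 5.16 CPM in WT ethanol (log2 change 2.31 ± 0.36, adjusted p = 0.00161). *AOS1* (LOC_Os03g55800), an allene oxide synthase at the entry to jasmonate synthesis, was at 54.03, 66.2 and 55.9 CPM in RNAi PEP1 and 16.7, 20.9 and 21.8 CPM in WT ethanol (log2 change 1.57 ± 0.18, adjusted p = 0.000218). The RNAi PEP1 libraries exceeded all WT ethanol libraries in each of these genes. The other higher calls were *JAZ6*, *TIFY11B* and *OPR1* (log2 changes 0.96, 1.08 and 1.15), and the lower call was the allene oxide cyclase *AOC* (-0.55). *TIFY11B* lost its call under the replicate block (adjusted p = 0.0503), without any 1 of RNAi PEP1 libraries 1, 2 and 3 (0.0783, 0.0839 and 0.0550) and without WT ethanol library 2 or 3 (0.104 and 0.0718). The receptors *COI1A* and *COI1B* were not called.

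All 4 tested WRKY genes were called higher, with a median log2 change of 2.57. *WRKY24* (LOC_Os01g61080) was at 53.4, 83.2 and 41.8 CPM in RNAi PEP1 and 11.5, 4.07 and 5.46 CPM in WT ethanol (log2 change 3.09 ± 0.46, adjusted p = 0.00137). *WRKY71* was at 113, 156 and 106 CPM in RNAi PEP1 and 35.9, 42.04 and 44.5 CPM in WT ethanol (log2 change 1.61 ± 0.23, adjusted p = 0.000940). The neighbours *WRKY76* and *WRKY62*, which restrain rice defence responses, were at 34.8, 32.01 and 19.5 CPM and 43.6, 32.8 and 34.6 CPM in RNAi PEP1, against 9.18, 1.42 and 2.55 CPM and 13.3, 2.13 and 5.34 CPM in WT ethanol. Their log2 changes were 2.72 (adjusted p = 0.0223) and 2.42 (adjusted p = 0.0299). Both calls were lost without any 1 of 4 libraries, and 2 of the 4 genes were called without any 1 of RNAi PEP1 library 1, RNAi PEP1 library 2, WT ethanol library 2 or WT ethanol library 3. Without these, the adjusted p of *WRKY76* was 0.0660, 0.0517, 0.0597 and 0.0880. That of *WRKY62* was 0.0843, 0.0544, 0.0738 and 0.108, in the same order.

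*MPK3* was higher among the perception genes. Of 6 tested genes of elicitor perception and the oxidative burst, 1 was called higher, against 15.2% of all tested genes called in either direction. It was the MAP kinase gene *MPK3* (LOC_Os03g17700), with 113, 144 and 83.5 CPM in RNAi PEP1 and 48.9, 27.6 and 32.03 CPM in WT ethanol (log2 change 1.65 ± 0.29, adjusted p = 0.00379). The chitin receptor genes *CERK1* and *CEBIP* had log2 changes of -0.13 and 0.66 and were not called. *PBZ1*, a pathogenesis-related gene of the PR10 family, was at 145, 462 and 63.6 CPM in RNAi PEP1 and 35.6, 5.91 and 5.87 CPM in WT ethanol and missed the threshold (log2 change 3.82 ± 1.37, adjusted p = 0.0862). In ethylene synthesis, *ACS1* (LOC_Os03g51740), an ACC synthase, was at 6.71, 5.94 and 6.06 CPM in RNAi PEP1 and 1.61, 1.00 and 1.84 CPM in WT ethanol (log2 change 2.07 ± 0.30, adjusted p = 0.00118). *ACO1* (LOC_Os09g27820), an ACC oxidase of the next step, was lower, at 0.778, 0.535 and 0.839 CPM in RNAi PEP1 and 2.17, 2.07 and 3.38 CPM in WT ethanol (log2 change -1.81 ± 0.34, adjusted p = 0.00472).

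Diterpenoid genes held calls in both directions. The 2 tested genes of gibberellin synthesis, *CPS1* and *KS1A*, were called lower in RNAi PEP1, and among 7 genes of phytoalexin synthesis 2 were called higher and 0 lower. *CPS1* (LOC_Os02g17780) was at 0.973, 0.375 and 1.40 CPM in RNAi PEP1 and 8.99, 22.6 and 13.8 CPM in WT ethanol (log2 change -4.03 ± 0.60, adjusted p = 0.00136). *KS1A* was at 2.38, 1.87 and 2.80 CPM in RNAi PEP1 and 3.04, 7.32 and 6.64 CPM in WT ethanol (log2 change -1.27 ± 0.36, adjusted p = 0.0380). The groups did not overlap in either. The call of *KS1A* was close to the threshold. It was lost under the replicate block (adjusted p = 0.0611), under limma-voom (0.0675) and with only the 6 libraries compared (0.125). It was also lost without any 1 of RNAi PEP1 libraries 1, 2 and 3 (adjusted p = 0.107, 0.124 and 0.0522), RNAi ethanol library 1 (0.0532), WT PEP1 libraries 1 and 3 (0.0572 and 0.0508) and WT ethanol libraries 2 and 3 (0.124 and 0.119).

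*CYP76M8* (LOC_Os02g36070), a cytochrome P450 of phytoalexin synthesis, was at 7.44, 51.97 and 8.99 CPM in RNAi PEP1 and 0.124, 0.354 and 0.119 CPM in WT ethanol (log2 change 6.79 ± 1.20, adjusted p = 0.00352). *KSL4* (LOC_Os04g10060), a diterpene cyclase of momilactone synthesis, was at 2.14, 16.4 and 1.58 CPM in RNAi PEP1 and 0.310, 0.354 and 0.237 CPM in WT ethanol (log2 change 4.45 ± 0.94, adjusted p = 0.00969). In both, RNAi PEP1 library 2 was well above the other RNAi PEP1 libraries, but all 3 exceeded WT ethanol. Without that library the log2 changes were 5.31 for *CYP76M8* (adjusted p = 0.00660) and 2.60 for *KSL4* (adjusted p = 0.0140). The call of *KSL4* was lost under limma-voom (log2 change 3.50, adjusted p = 0.0722) and with only the 6 libraries compared (adjusted p = 0.0627). *CPS4*, *CYP99A2* and *CYP99A3* had positive log2 changes (3.73, 4.01 and 3.06) but were not called (adjusted p = 0.0589, 0.0519 and 0.144). *CPS2* and *KSL7* had larger gaps between libraries. *CPS2*, a diterpene cyclase, was at 1.46, 308 and 2.38 CPM in RNAi PEP1 and 2.05, 0.118 and 0 CPM in WT ethanol, and *KSL7* was at 6.03, 287 and 4.75 CPM in RNAi PEP1 and 9.18, 3.19 and 1.72 CPM in WT ethanol. Among the 6 libraries compared, RNAi PEP1 library 2 alone carried these levels. The groups overlapped, and neither gene was called (adjusted p = 0.111 and 0.164). In RNAi ethanol, library 2 also stood apart, with 1308 counts of *CPS2* against 0 and 1 in the others. For *KSL7* it had 1139 counts against 7 and 5.

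The levels summed over the 9 diterpenoid genes were 294.6, 1433 and 147.0 CPM in RNAi PEP1, and 115.1, 45.5 and 36.2 CPM in WT ethanol. The library with the highest diterpenoid sum among the 6 also had the highest shoot marker sum. In WT ethanol the highest shoot marker sum was in library 2 and the highest diterpenoid sum in library 1. In RNAi ethanol, library 2 had the highest of both sums, at 66.6 CPM for shoot markers and 253.5 CPM for diterpenoid genes. In WT PEP1 the highest shoot marker sum was in library 1 (187.5 CPM) and the highest diterpenoid sum in library 3 (224.9 CPM). The part of shoot RNA in these values was not tested. Without WT ethanol library 1, 5 diterpenoid genes were called higher, and 4 were without RNAi PEP1 library 3, RNAi ethanol library 1 or RNAi ethanol library 2.

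Cellulose synthase genes were lower. Of 8 tested, 5 were called lower in RNAi PEP1 and 0 higher, with a median log2 change of -1.25. The 3 genes of secondary walls were all lower. *CESA7* (LOC_Os10g32980) was at 52.3, 29.4 and 113 CPM in RNAi PEP1 and 225, 242 and 276 CPM in WT ethanol (log2 change -1.93 ± 0.44, adjusted p = 0.0142). *CESA4* (LOC_Os01g54620) was at 43.6, 31.5 and 106 CPM in RNAi PEP1 and 189.9, 237 and 239.8 CPM in WT ethanol (log2 change -1.88 ± 0.44, adjusted p = 0.0154). *CESA9* (LOC_Os09g25490) was at 54.1, 30.99 and 106 CPM in RNAi PEP1 and 183, 218 and 246 CPM in WT ethanol (log2 change -1.76 ± 0.42, adjusted p = 0.0186). Library 3 was the highest of RNAi PEP1 in all 3, and no library of that group reached WT ethanol. Without RNAi PEP1 library 1, 2 cellulose synthase genes were called, and the adjusted p was 0.0638 for *CESA7*, 0.0685 for *CESA4* and 0.0764 for *CESA9*. With only the 6 libraries compared, *CESA3* alone was called, and the adjusted p was 0.0627 for *CESA7*, 0.0619 for *CESA4*, 0.0661 for *CESA9* and 0.0505 for *CESA8*. *CESA9* also lost its call without WT ethanol library 3 (adjusted p = 0.0591).

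Of the genes of primary walls, *CESA3* was at 367, 250.2 and 401 CPM in RNAi PEP1 and 833, 891 and 1011 CPM in WT ethanol (log2 change -1.43 ± 0.18, adjusted p = 0.000437), and *CESA8* was at 409, 263 and 411 CPM in RNAi PEP1 and 864, 619.5 and 796 CPM in WT ethanol (log2 change -1.07 ± 0.20, adjusted p = 0.00430). *CESA2*, *CESA5* and *CESA6* were not called (log2 changes -0.53, -0.73 and -0.40). Of 5 phenylpropanoid genes, which serve lignin and other phenolics, 3 were called lower and 1 higher. *PAL* (LOC_Os02g41630), a phenylalanine ammonia-lyase of the first step, was at 3836, 4143 and 3248 CPM in RNAi PEP1 and 7398, 10160 and 7797 CPM in WT ethanol (log2 change -1.18 ± 0.24, adjusted p = 0.00782). The 4-coumarate CoA ligase *4CL3* (LOC_Os02g08100) was lower, at 563, 812 and 491 CPM in RNAi PEP1 and 1176, 2021 and 1249 CPM in WT ethanol (log2 change -1.25 ± 0.25, adjusted p = 0.00724). Its family member *4CL5* (LOC_Os08g34790) was higher, at 68.9, 109 and 47.6 CPM in RNAi PEP1 and 33.2, 20.2 and 17.7 CPM in WT ethanol (log2 change 1.67 ± 0.36, adjusted p = 0.0114), and lost its call without WT ethanol library 3 (adjusted p = 0.0520).

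Most cytokinin genes were lower. Of 8 tested, 6 were called lower in RNAi PEP1 and 0 higher, with a median log2 change of -1.07, and the called genes were 5 type-A response regulators and the cytokinin oxidase *CKX5*. *RR6* (LOC_Os04g57720) was at 7.93, 13.9 and 5.31 CPM in RNAi PEP1 and 29.1, 45.1 and 33.8 CPM in WT ethanol (log2 change -1.99 ± 0.30, adjusted p = 0.00146). *RR10* (LOC_Os12g04500) was at 33.9, 46.8 and 29.6 CPM in RNAi PEP1 and 102, 221 and 109 CPM in WT ethanol (log2 change -1.97 ± 0.30, adjusted p = 0.00149). *RR9* (LOC_Os11g04720) was at 36.9, 53.1 and 33.3 CPM in RNAi PEP1 and 92.4, 173 and 89.3 CPM in WT ethanol (log2 change -1.52 ± 0.29, adjusted p = 0.00507). The groups did not overlap in any of these. *RR9* and *RR10* are near-identical copies on chromosomes 11 and 12, and reads may have been divided between them. *RR4* and *RR2* were lower by smaller amounts (log2 changes -0.90 and -0.96), and *RR1* was not called (-0.12). *RR2* lost its call without RNAi PEP1 library 1 or 3 (adjusted p = 0.0736 and 0.0539), and *CKX5* (log2 change -1.17) lost its call without RNAi PEP1 library 2 or 3 (0.0710 and 0.0569) and WT ethanol library 2 or 3 (0.0983 and 0.0861).

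The remaining lists had few tested genes, so their counts of calls say little beside the 15.2% called over all tested genes. Calls were made for 1 of 3 abscisic acid genes, 1 of 2 fermentation genes and 1 of 2 genes listed under endoplasmic reticulum chaperones. *APX1* (LOC_Os03g17690), a cytosolic ascorbate peroxidase, was at 742, 634 and 712 CPM in RNAi PEP1 and 268, 258 and 306 CPM in WT ethanol (log2 change 1.33 ± 0.15, adjusted p = 0.000274) and was the 1 call among 4 antioxidant genes. *ABA8OX1* (LOC_Os02g47470), which encodes an enzyme that breaks down abscisic acid, was at 134, 133 and 81.5 CPM in RNAi PEP1 and 53.7, 56.3 and 45.97 CPM in WT ethanol (log2 change 1.16 ± 0.26, adjusted p = 0.0138). Its call was lost without RNAi PEP1 library 1 (adjusted p = 0.0554) and without WT ethanol library 3 (adjusted p = 0.0599). *ADH2*, an alcohol dehydrogenase, was higher (log2 change 0.75, adjusted p = 0.0148, and 0.0508 without WT ethanol library 2). *BZIP50*, a transcription factor of the unfolded protein response, was higher (log2 change 0.68, adjusted p = 0.0275), but not under the replicate block (adjusted p = 0.0547). It also lost its call without RNAi PEP1 library 1 or 2 (0.0520 and 0.102) and without WT ethanol library 2 or 3 (0.0917 and 0.0915).

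Of 6 clock genes, *PRR95* and *PRR1*, both pseudo-response regulators, were called lower (log2 changes -0.91 and -0.67, adjusted p = 0.0365 and 0.0229). Both calls were lost without RNAi PEP1 library 1, without RNAi PEP1 library 2 and without WT ethanol library 2. The adjusted p was then 0.114, 0.0526 and 0.126 for *PRR95*, and 0.0546, 0.0623 and 0.0548 for *PRR1*. *PRR95* lost its call also without RNAi PEP1 library 3 (0.0936), RNAi ethanol library 3 (0.0536) or WT PEP1 library 1 (0.0525), and *PRR1* without WT ethanol library 3 (0.0653). The 4 tested auxin and root formation genes *PIN1A*, *SHR1*, *WOX11* and *SCR1* were not called, with log2 changes from -0.48 to -0.0069. The 4 shoot markers were not called either, with log2 changes from 0.29 to 1.52.

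The steps between the groups held unequal counts of calls. RNAi PEP1 differed from RNAi ethanol in 3934 genes (15.4%) and from WT PEP1 in 679 genes (2.65%). WT PEP1 differed from WT ethanol in 1330 genes (5.19%), and RNAi ethanol differed from WT ethanol in 971 genes (3.79%). The mean distances between libraries lay closer together, at 1.142, 0.992, 1 and 1.088 in the same order. The counts of calls moved with single libraries. The 3934 calls became 1475 or 1703 without RNAi PEP1 library 1 or 2, and 1812, 2311 and 1293 without RNAi ethanol library 1, 2 or 3. The 1330 calls became 571 and 593 without WT PEP1 library 1 or 3, and 2942, 807 and 731 without WT ethanol library 1, 2 or 3. The 971 calls became 611 without RNAi ethanol library 3, and the 679 became 449 without WT PEP1 library 1. Each step shares libraries with the comparison of RNAi PEP1 and WT ethanol, and the steps add up to it on the log2 scale. The test of whether the PEP1 change differed between the genotypes called 1 gene of 25602 and 0 of the 133 list genes with edgeR, where 1353 genes and 22 list genes had an unadjusted p below 0.05. DESeq2 called 95 genes and 1 list gene in that test, and limma-voom called 1 and 0. Of the 679 genes, 388 were higher in RNAi PEP1 than in WT PEP1 and 291 were lower. Examples of the higher ones were *WRKY71* (log2 change 1.57 ± 0.23, adjusted p = 0.00234), *AOS1* (log2 change 0.95 ± 0.17, adjusted p = 0.0122), *ACS1* (log2 change 1.30 ± 0.29, adjusted p = 0.0387) and *TIFY11E* (log2 change 2.35 ± 0.43, adjusted p = 0.0122). *PIP1-3* was among the lower ones, as given with the pair differences.

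The converse pair, WT PEP1 against RNAi ethanol, has the same treatment difference with the genotypes exchanged and shares no library with RNAi PEP1 against WT ethanol. It held 4031 calls (15.7%), 1991 of them higher (7.78%) and 2040 lower (7.97%). The count was 2593, 2560 and 2128 without RNAi ethanol library 1, 2 or 3, and to 2136 and 1974 without WT PEP1 library 1 or 3. Of the genes tested, 1302 were called in both pairs in the same direction (5.09%), 718 higher (2.8%) and 584 lower (2.28%) with PEP1, which is 33.4% of the calls in RNAi PEP1 against WT ethanol and 32.3% of those in the converse pair. A further 615 were called in both pairs in opposite directions (2.4%), so that the RNAi line was higher in 348 (1.36%) and lower in 267 (1.04%) whichever group had PEP1. The same-direction count was 738 without RNAi PEP1 library 1, 844 and 721 without RNAi ethanol library 1 or 3, 746 and 729 without WT PEP1 library 1 or 3, and 2466 and 822 without WT ethanol library 1 or 3. The opposite-direction count stayed at 499 to 651 when any 1 library was left out. The genes that moved the same way changed moderately, with median absolute log2 changes of 1.53 and 1.52 in the pairs. Those that moved in opposite ways had medians of 5.89 and 5.26. Of these 615 genes, 190 had 0 counts in all 6 libraries of a genotype, against 0 of the 1302. The fitted changes of such genes depend on depth and raise these medians. Over all tested genes, which are no independent replicates and come from a single fit, the pairs' log2 changes had a Pearson r of -0.20 and a Spearman rho of 0.43. Among the list genes, 36 were called in both pairs in the same direction and 1 in opposite directions, *RR6*.

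**Figure D3:**
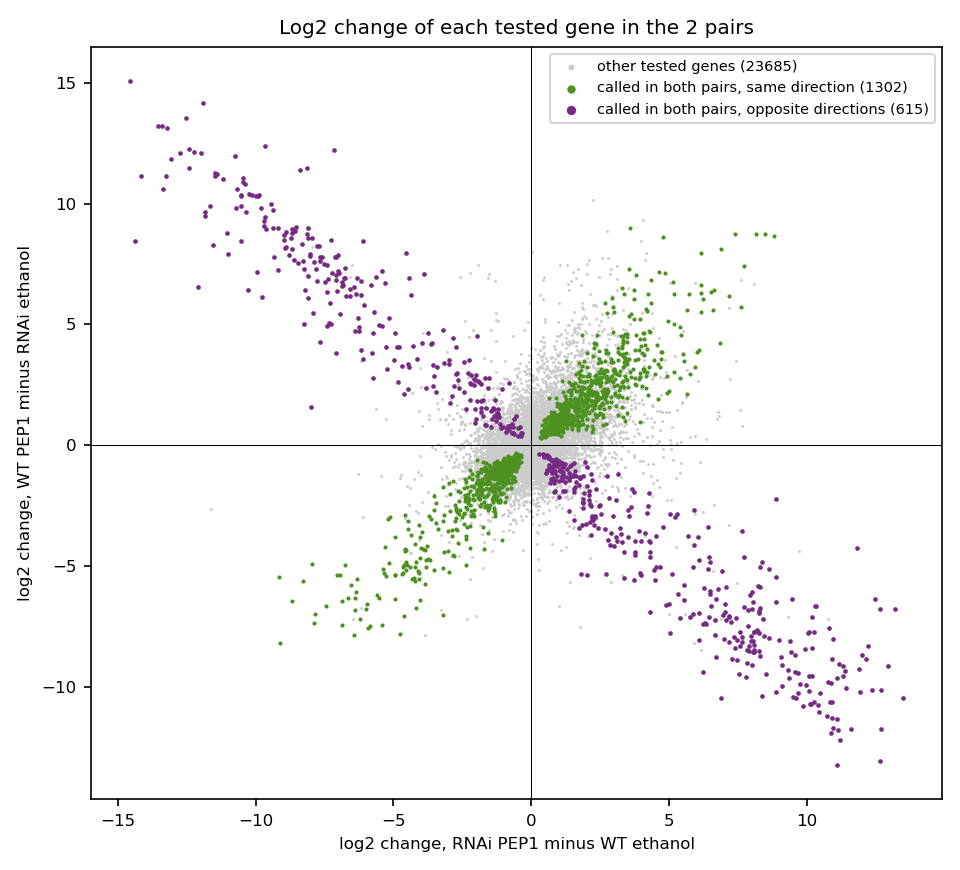
Log2 change of each of 25602 tested genes in RNAi PEP1 against WT ethanol (x axis) and in WT PEP1 against RNAi ethanol (y axis). Green points were called in both pairs in the same direction (1302) and fill the centre of their diagonal; purple points were called in opposite directions (615) and extend to changes beyond 10 on the log2 scale.

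Some list genes changed differently in RNAi PEP1 against WT ethanol than in the converse pair. The difference between the log2 changes of the pairs, a test added after the data were seen, was called in 1346 genes (5.26%), with 787 positive (3.07%) and 559 negative (2.18%), and in 11 of the 133 list genes (18 with DESeq2). It equals the genotype difference summed over both treatments. Among them were 4 of the 8 cytokinin genes, all with negative differences. *RR6* had 19.6, 16.8 and 20.4 CPM in WT PEP1 and 8.45, 9.56 and 8.69 CPM in RNAi ethanol, so that the RNAi line was below the wild type in both pairs (difference -3.08 ± 0.42, adjusted p = 0.000947). *RR10* had 89.6, 70.3 and 58.3 CPM in WT PEP1 and 74.96, 82.9 and 75.7 CPM in RNAi ethanol (difference -1.87 ± 0.41, adjusted p = 0.0221). *RR9* (-1.67 ± 0.40, adjusted p = 0.0349) and *RR4* (-1.10 ± 0.19, adjusted p = 0.00425) differed in the same way. In *RR10*, *RR9* and *RR4*, the libraries of WT PEP1 and RNAi ethanol overlapped. For *RR10* the group means were 36.8 ± 8.93 CPM in RNAi PEP1, 77.9 ± 4.39 in RNAi ethanol, 72.8 ± 15.8 in WT PEP1 and 144 ± 66.9 in WT ethanol (SD, n = 3 each).

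*CESA3* had its lowest mean in RNAi PEP1 and its highest in WT ethanol, with means of 339 ± 79.03 CPM in RNAi PEP1, 585 ± 43.03 in RNAi ethanol, 522 ± 9.12 in WT PEP1 and 912 ± 91.1 in WT ethanol (SD, n = 3 each; difference -1.26 ± 0.25, adjusted p = 0.0113). *4CL4*, another 4-coumarate CoA ligase gene, had a smaller difference of -0.56 ± 0.14, adjusted p = 0.0423. The order was turned round in *AOS1*, with means of 58.7 ± 6.56 CPM in RNAi PEP1, 27.5 ± 5.60 in RNAi ethanol, 30.5 ± 3.31 in WT PEP1 and 19.8 ± 2.72 in WT ethanol (difference 1.42 ± 0.25, adjusted p = 0.00485), and in *ACS1* (difference 2.15 ± 0.42, adjusted p = 0.0106). *WRKY71* was highest in RNAi PEP1, at 125 ± 27 CPM, with 47.5 ± 14.7 in RNAi ethanol, 42.1 ± 2.12 in WT PEP1 and 40.8 ± 4.45 in WT ethanol (difference 1.78 ± 0.31, adjusted p = 0.00558). Its difference in PEP1 change between the genotypes was nevertheless not called (RNAi minus wild type, log2 1.35, adjusted p = 0.467). *TIFY11E* was at 1.23, 2.79 and 2.65 CPM in RNAi ethanol and 0.541, 1.49 and 0.739 CPM in WT PEP1, so that under either treatment every library of the RNAi line was above those of the wild type (difference 3.92 ± 0.61, adjusted p = 0.00243). *PIP1-3* was lower in the RNAi line under PEP1 (adjusted p = 0.0466) and under ethanol (adjusted p = 0.0113), with 2207 ± 207 CPM in RNAi PEP1 and 1392 ± 188 in RNAi ethanol, against 3745 ± 186 in WT PEP1 and 2673 ± 139 in WT ethanol (difference -1.70 ± 0.25, adjusted p = 0.00149).

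**Figure D4:**
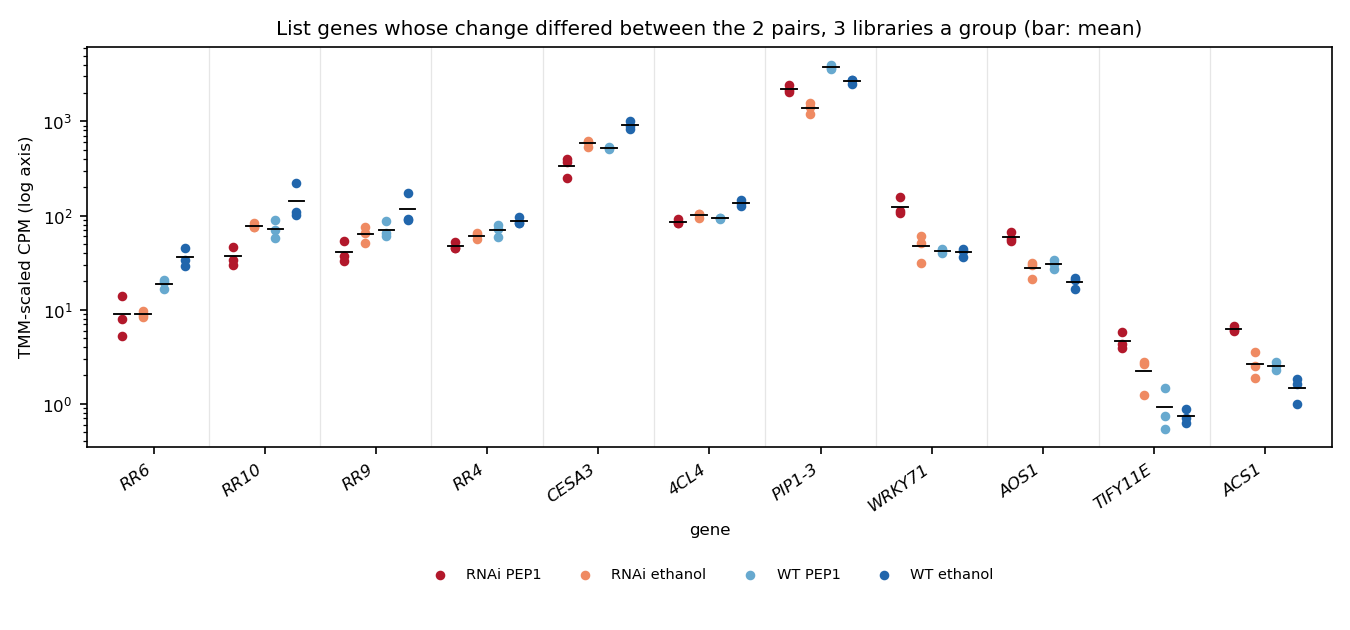
TMM-scaled CPM (log axis) of the 11 list genes whose log2 change differed between the pairs, in each of 3 libraries a group, with the group mean as a bar. In RR10, RR4, CESA3 and 4CL4 each RNAi PEP1 library is below every library of the other groups and each WT ethanol library is above them, and in AOS1 and ACS1 the RNAi PEP1 libraries are the highest.

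Many of the largest fitted changes between RNAi PEP1 and WT ethanol were in genes that differed between the genotypes whichever was given PEP1. Of 438 calls with a fitted change of at least 32-fold, 334 were called in the opposite direction in the converse pair and 68 in the same direction. Of the 2089 higher calls, 150 had 0 counts in all 3 WT ethanol libraries, and 99 of these had 0 counts in all 6 wild type libraries. Of the 1813 lower calls, 121 had 0 counts in all 3 RNAi PEP1 libraries, and 93 of these had 0 counts in all 6 libraries of the RNAi line. Among the 615 genes called in opposite directions, 190 had 0 counts in all 6 libraries of a genotype. A gene with that pattern, if called in both pairs, can only be called in opposite directions. It passed the filter on low counts through the other genotype alone, and the size of its fitted change depends on depth. The share of genes with that pattern among all tested genes was not computed, so these counts are a description. At this depth a count of 0 allows up to 3 counts in a library.

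Outside the lists, the largest falls and rises were in IDs for which no name was used. Novel00347 had 0 counts in every RNAi PEP1 library and in every RNAi ethanol library, and was at 238, 198 and 259.6 CPM in WT PEP1 and 172, 166 and 152 CPM in WT ethanol. Against a floor of 3 counts over the group, it was at least 3299-fold lower in RNAi PEP1 than in WT ethanol. LOC_Os12g13350, on chromosome 12, also had 0 counts in the RNAi line. It was at 3.54, 1.13 and 2.27 CPM in WT PEP1 and 196, 80.2 and 158 CPM in WT ethanol, and at least 2914-fold lower in RNAi PEP1 than in WT ethanol. LOC_Os11g34820, on chromosome 11, was at 76.8, 76.9 and 80.9 CPM in RNAi PEP1 with 0 counts in WT ethanol, at least 1303-fold higher. Its levels in RNAi ethanol, without PEP1, were 90.1, 120.9 and 107.6 CPM. LOC_Os07g24830, on chromosome 7, was at 1624, 937 and 1006 CPM in RNAi PEP1 and 0.124, 0.0590 and 0.178 CPM in WT ethanol, where the 3 libraries had 6 counts in all. It was as high in RNAi ethanol, at 1198, 1261 and 1098 CPM. In WT PEP1 the last gene was at 0.148, 0.475 and 31.3 CPM, so that library 3 stood apart from the others.

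Genes called in opposite directions were unevenly spread over the chromosomes given by their locus IDs. They made up 8.81% of the tested genes on chromosome 11 (128 of 1453) and 5.07% on chromosome 12 (70 of 1381), against 2.4% of all tested genes and 0.665% on chromosome 1 (23 of 3457). Among serial-numbered features the share was 7.82% (75 of 959). Genes called in the same direction were more even, at 3.79% to 6.35% of the tested genes on each chromosome, and chromosome 11 had the lowest of these shares. In stretches of 5000 locus numbers, the share called in opposite directions reached 29.4% on chromosome 12 (35 of 119, locus numbers 10000 to 14999). It was 21.4% (33 of 154) and 20.5% (26 of 127) in the neighbouring stretches of chromosome 11 that start at 30000 and 25000, and 15.5% (22 of 142) on chromosome 6 from 20000. Without WT ethanol library 1 and RNAi PEP1 library 2 the shares were 8.71% on chromosome 11, 5.34% on chromosome 12 and 0.546% on chromosome 1. These shares are descriptions, with no test, and neighbouring genes are not independent.

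**Figure D5:**
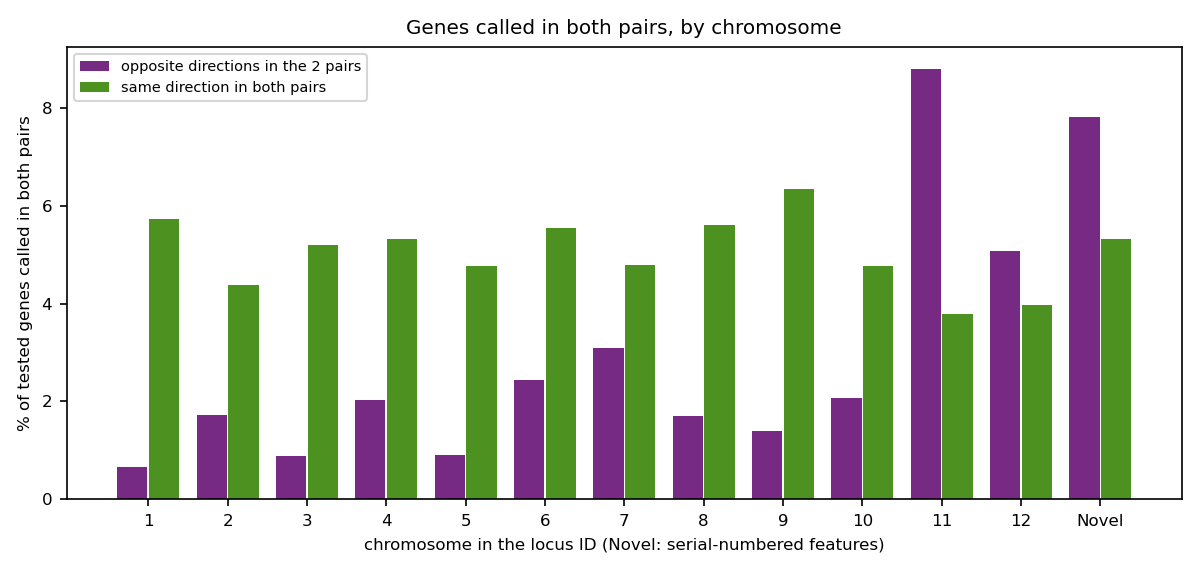
Share of the tested genes on each chromosome that were called in both pairs, in opposite directions (purple) or in the same direction (green), in percent, with serial-numbered features last. The purple bars reach 8.81% on chromosome 11, 5.07% on chromosome 12 and 7.82% among serial-numbered features, while the green bars stay between 3.79% and 6.35%.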

How the data were processed

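The values are raw counts for 57265 features in a table that the authors deposited, and its 12 columns were matched to samples by title. Sources used here give no aligner, genome build, annotation or strand setting, so counts of overlapping genes, antisense partners and near-identical copies are uncertain. Libraries were made from 1 µg of total RNA per the labels' protocols. All 12 libraries entered 1 edgeR 4.0.16 fit (R 4.3.3, limma 3.58.1) on 4 groups, scaled by TMM after filterByExpr at its defaults. The quasi-likelihood test, by its older method, which this version uses by default, was followed by Benjamini-Hochberg adjustment over 25602 genes. SE is the absolute log2 change divided by the square root of F. The common biological coefficient of variation was 0.313. Folds of genes with a group at 0 were computed against 3 counts over the group. No pair of libraries in a group was a duplicate (chi-square per degree of freedom of 15.0 or more).

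The table pairs no ID with a name, and 0 of its IDs matched the 39387 genes of the NCBI RefSeq table of ASM3414082v1. Locus and symbol pairs were written by hand, and a pair was used where RefSeq places the symbol on the same chromosome within 0.03 of its length. That held for 141 of 173 and cannot tell neighbouring copies apart. The members, lists and tests were chosen with earlier results of these data known, and the test of the difference between the pairs was added after the data were seen. The genes named were those of each list with the largest called changes (up to 6 for iron uptake, 3 elsewhere), list genes called in opposite directions in the pairs, and outside the lists the 2 largest falls and 2 largest rises at 5 CPM or more in the higher group whose libraries did not overlap. Other members were named as examples after their values were seen.

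Replicate numbers in the titles are shared by the groups. Deviations from the group means of same-numbered RNAi PEP1 and WT ethanol libraries correlated at 0.35, 0.23 and 0.60, against -0.56 to 0.13 for differently numbered ones, so a fit with the number as a block was run. Other alternatives were RLE scaling, other filters, DESeq2 1.42.0, limma-voom, the other quasi-likelihood method, only the compared libraries and leaving out libraries. The edgeR step was tested on simulated data.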

Additional observations from a re-analysis of the deposited data

How the results depend on the processing

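The distance of 1.34 between RNAi PEP1 and WT ethanol stayed at 1.22 to 1.42 in the alternatives run for it, including those that left out 1 library. Counts of calls moved more. Fitting only the 6 libraries compared gave 1769 calls, 1538 of at least 2-fold, 661 shared with the converse pair in the same direction and 41 list genes, while the same kind of fit gave the converse pair 4988 calls, against 4031 with all libraries. Genes that lost their calls in the 6-library fit included *GLN1-1*, *4CL3* and *PAL* (adjusted p = 0.0634, 0.0665 and 0.0786). Also lost there were *PIP2-6*, *CKX5*, *RR2* and *BZIP50* (0.1035, 0.1189, 0.1025 and 0.105). So were *PRR1*, *PRR95* and *NRT2.1* (0.1054, 0.0830 and 0.137). DESeq2 gave 2080 genes and 18 list genes with a difference between the pairs, 2094 genes called in both pairs in the same direction, and 2577, 6291, 1699 and 1044 calls for WT PEP1 against WT ethanol, RNAi PEP1 against RNAi ethanol, RNAi ethanol against WT ethanol and RNAi PEP1 against WT PEP1. Leaving out 1 library in turn gave 2313 to 6378 calls, 1867 to 3991 of at least 2-fold, 1974 to 5458 in the converse pair, 721 to 2466 called in both pairs in the same direction, 499 to 651 in opposite directions and 50 to 79 list genes. For the steps in the order just given, the ranges were 571 to 2942, 1293 to 5604, 611 to 1046 and 449 to 757. Without both WT ethanol library 1 and RNAi PEP1 library 2, an alternative chosen after the data were seen, 1967 genes were called in both pairs in the same direction and 3129 in WT PEP1 against WT ethanol. The replicate block gave 3359 calls, of which 3198 were shared with the fit without it, and ended the calls of *NRT2.1*, *TIFY11B*, *KS1A* and *BZIP50* while changing no other list call. The other scalings, filters and tools run kept the main count of 3902 within 1.5 times (DESeq2 5560). No list gene called in RNAi PEP1 against WT ethanol changed sign in the alternatives that gave it an adjusted p, 20 for *NRT2.1* and 21 for each other gene. The share of higher among called genes ranged from 50.1% to 59.0%, and the median log2 change of all genes moved by less than 0.1. The causes of these moves were not tested.
Depth limited genes near 0, where 3 counts stand for 0.141 to 0.188 CPM before TMM scaling in the libraries compared.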
